A study of Mus musculus with 4 samples.

Results

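The genes described here are 8 genes that enterocytes, the absorbing cells of the small intestine, use to take up and pass on nutrients, as they were measured in mouse stomach RNA. They are Anpep, Vil1, Fabp1, Fabp2, Rbp2, Apoa1, Apoa4 and Apoc3. A probe counted as theirs where the array's annotation gave it exactly 1 gene symbol and that symbol was one of the 8. Each gene had 1 such probe, so the set is 8 of the 13840 genes that the array names in this way, and all 8 had a value on every array. The set was chosen with its differences between the strains already known, because its members went in opposite directions. Their values between the strains are therefore given as a description, with no test.

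Stomachs came from B6.CAST-17, a homozygous congenic mouse that by its name carries a CAST-derived part of chromosome 17 on the B6 background, and from wild-type C57BL/6J, the inbred strain it was set against. All mice were male, ate chow and had been without food for 4 h when the stomach was removed; their age was not used here. RNA of 6 mice per strain was combined in 2 pools of 3 mice, and each pool was read on 1 of 4 single-colour arrays. A value thus stands for 3 mice, the spread between single mice cannot be seen, and the 2 pools per strain limit the precision of every comparison. The series title concerns Glp1r and gastric emptying. None of the 8 genes lies on chromosome 17: Vil1 is on chromosome 1, Fabp2 on 3, Fabp1 on 6, Anpep on 7, and Rbp2, Apoa1, Apoc3 and Apoa4 on 9.

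Enterocytes digest the last peptides and sugars at a brush border of microvilli, which villin (Vil1) bundles and on which aminopeptidase N (Anpep) cuts peptides. Inside the cell, fatty acid-binding proteins carry fatty acids (Fabp1 is the liver form, Fabp2 the intestinal form) and cellular retinol-binding protein II (Rbp2) carries vitamin A. Apolipoproteins are then packed with the fat into chylomicrons: Apoa1 and Apoa4 are structural, and Apoc3 is an inhibitor of lipoprotein lipase and of remnant clearance. Several of these genes are also active elsewhere, with Fabp1, Apoa1 and Apoc3 strong in liver and Anpep in myeloid cells, fibroblasts and kidney.

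The sequences before the starts of Rbp2 and Anpep, the genes with the lowest congenic values relative to wild type, and of Fabp1, which went the other way, are shown. Of the 8 genes, 7 matched the RefSeq promoter table (GRCm38.p6), all but Apoc3, which had the largest positive difference of the set. Fabp1 had the largest positive difference among the 7. Each run is the 250 bases before the annotated start, 5′ to 3′, and capitals mark matches on either strand to TATAAA (the TATA box), GTTAAT (part of HNF1 sites), GATAA (the core that GATA factors read), TTTAT (the core of CDX sites) and CAAAG (a core of HNF4 sites). TTTAT lies within the reverse complement of TATAAA, so each TATAAA match is also a TTTAT match, and in Fabp1 a GATAA match overlaps a TTTAT match. Rbp2 is at chr9:98490287-98490536 on the plus strand, Anpep at chr7:79848211-79848460 on the minus strand and Fabp1 at chr6:71199629-71199878 on the plus strand.
Rbp2: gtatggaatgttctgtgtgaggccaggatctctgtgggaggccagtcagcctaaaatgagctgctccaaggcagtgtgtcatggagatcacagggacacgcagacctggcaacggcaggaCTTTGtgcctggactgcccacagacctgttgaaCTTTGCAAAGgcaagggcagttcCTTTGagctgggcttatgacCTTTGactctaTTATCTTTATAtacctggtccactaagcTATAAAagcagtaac
Anpep: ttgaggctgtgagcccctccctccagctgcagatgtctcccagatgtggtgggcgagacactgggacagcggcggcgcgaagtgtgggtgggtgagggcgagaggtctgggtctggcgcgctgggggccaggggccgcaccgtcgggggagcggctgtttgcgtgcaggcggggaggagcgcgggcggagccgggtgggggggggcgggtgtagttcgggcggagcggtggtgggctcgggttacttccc
Fabp1: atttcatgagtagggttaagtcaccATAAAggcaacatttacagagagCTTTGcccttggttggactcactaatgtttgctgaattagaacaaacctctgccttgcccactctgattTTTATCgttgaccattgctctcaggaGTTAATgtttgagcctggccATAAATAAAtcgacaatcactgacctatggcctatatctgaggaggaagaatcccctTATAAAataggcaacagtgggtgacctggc
Rbp2 and Fabp1 held TATAAA, at 38 and 15 bases before the start in Rbp2 and at 30 bases in Fabp1, and none of the 5 other windows did. TATAAA is found in 12.4% of the 32851 windows of this length. CAAAG had 5 matches in Rbp2 and 1 each in Fabp1, Fabp2, Apoa4 and Vil1, and 48.6% of all windows hold it. GTTAAT matched in Fabp1 alone among the 7 (6.4% of all windows). GATAA matched once each in Rbp2 and Fabp1 (22.6% of all windows), and TTTAT matched in Rbp2, Fabp1 and Fabp2 (37.3% of all windows). The Anpep window held none of the 5 and was 72.8% G or C, against 50.0% in Rbp2, 42.8% in Fabp1 and a median of 52.4% over all windows. A match is a run of letters and not a known site.

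Over the set there was no common direction. Signals are the deposited values on a log2 scale, whose base was inferred from their range, and differences are congenic minus wild type. The congenic mean was higher for 5 genes and lower for 3, with a median difference of 0.074, and over all 13475 probes compared the median was -0.002, with 49.6% of differences positive. Both congenic pools lay above both wild-type pools for Apoc3, Fabp1 and Apoa4, and below both for Rbp2, Anpep and Fabp2, while for Vil1 and Apoa1 the strains overlapped. Such a separation was seen in 49.4% of all probes, upward in 23.4% and downward in 26.1%. None of the 8 passed an adjusted p of 0.05 in limma, as 0.475% of all probes did; since the genes were picked on this contrast, nothing is read from these counts. The distance between the most positive and the most negative gene was 2.15 on the log2 scale.

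**Figure D1:**
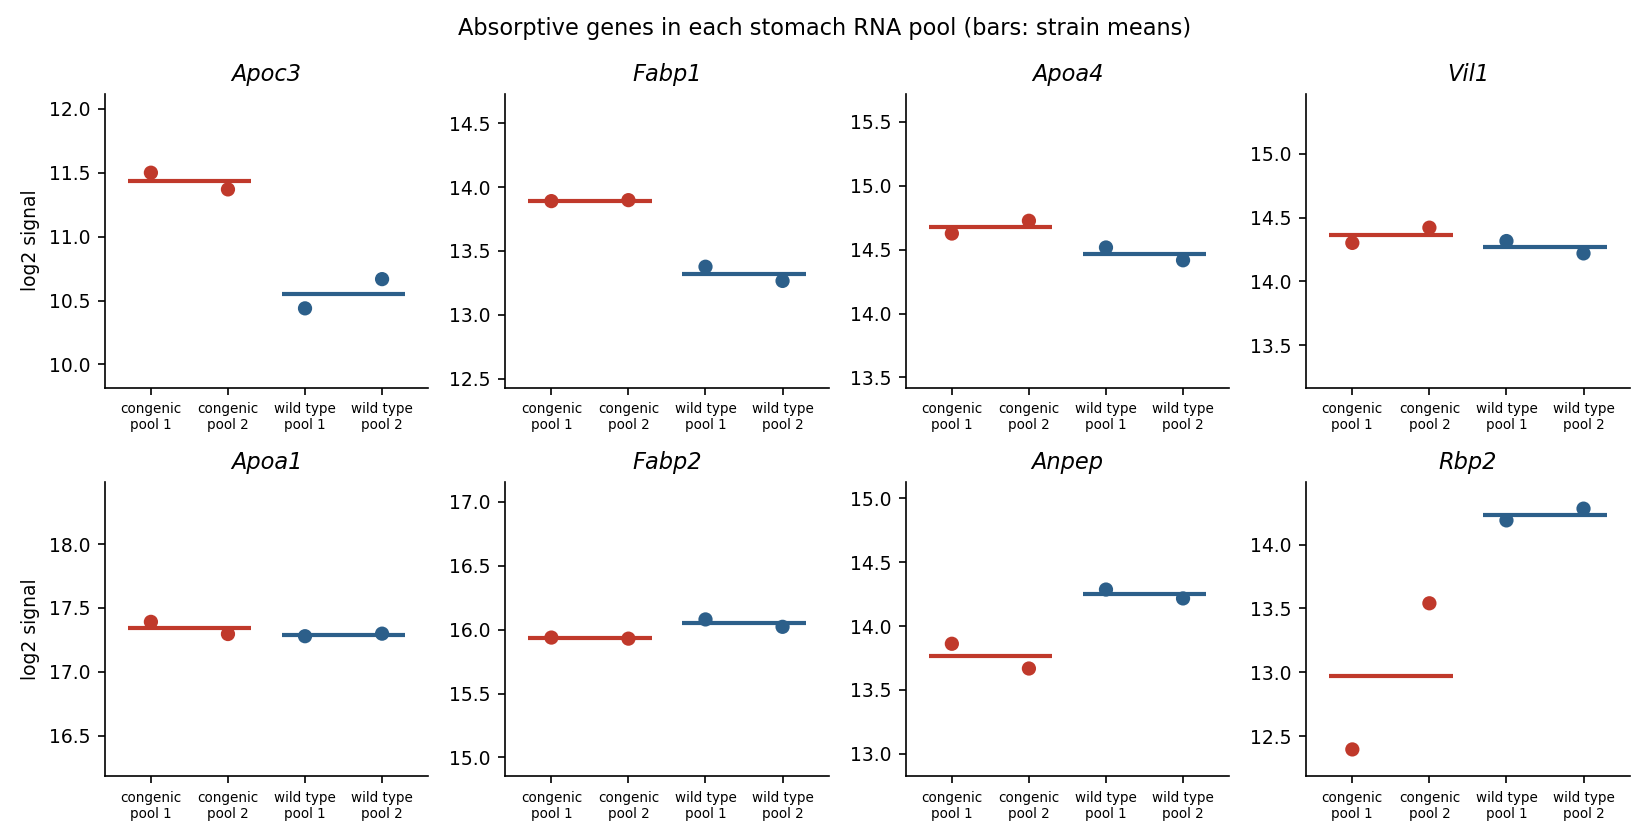
Log2 signal of each gene (vertical axis, the same span of 2.3 log2 units in every panel) in the 2 congenic pools (red, left) and the 2 wild-type pools (blue, right), with a bar at each strain mean. Apoc3 and Fabp1 sit higher in the congenic pools, Anpep and Rbp2 lower, and congenic pool 1 stands apart for Rbp2.

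Rbp2 is the carrier that presents retinol to the enzyme that esterifies it for packing into chylomicrons. Its signal (probe 665706) was 12.40 in congenic pool 1 and 13.54 in congenic pool 2, against 14.19 in wild-type pool 1 and 14.28 in wild-type pool 2. Both congenic pools were below both wild-type pools, and congenic pool 1 was well below congenic pool 2. The means were 12.97 ± 0.81 in congenic and 14.24 ± 0.065 in wild-type pools (SD, n = 2 each), a difference of -1.27, or 2.40-fold lower in congenic. The congenic pools differed from each other by 1.14, a gap that only 0.505% of all probes reached, whereas the step between congenic pool 2 and the lower wild-type pool was 0.65. The size of the difference therefore depended on the pool: it was -0.69 without congenic pool 1 and -1.84 without congenic pool 2.

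Anpep, the peptidase of the brush border, had the next most negative difference. It (probe 923025) read 13.86 and 13.67 in congenic pools 1 and 2, against 14.29 and 14.22 in wild-type pools 1 and 2. The strains were separated by 0.35, more than the gap between the congenic pools (0.19) or between the wild-type pools (0.069). Means of 13.76 ± 0.14 in congenic and 14.25 ± 0.049 in wild-type pools gave -0.49, or 1.40-fold lower, and leaving out any 1 pool gave values between -0.58 and -0.39. In bulk RNA, fewer cells of a type and less RNA per cell cannot be told apart, here and for every gene below.

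Vil1, which bundles the actin of microvilli, shares the brush border with Anpep, but its strains were not separated. Its probe (365750) read 14.30 and 14.42 in congenic pools 1 and 2 and 14.32 and 14.22 in wild-type pools 1 and 2. Congenic pool 1 lay between the 2 wild-type pools. The difference of 0.093 was smaller than the gap between the congenic pools (0.12) and about the gap between the wild-type pools (0.097).

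The 2 fatty acid-binding proteins differed from each other in direction. Fabp1 (probe 415806) read 13.89 and 13.90 in congenic pools 1 and 2, against 13.38 and 13.27 in wild-type pools 1 and 2. The pools of each strain lay close together, with gaps of 0.0076 in congenic and 0.11 in wild type, and the strains were 0.51 apart at the nearest. The means of 13.89 ± 0.0053 in congenic and 13.32 ± 0.079 in wild-type pools differed by 0.57, or 1.49-fold, and by 0.52 to 0.63 when any 1 pool was left out. Fabp2, which binds fatty acids in enterocytes and is little used in liver, read 15.94 and 15.93 in congenic pools 1 and 2, against 16.08 and 16.02 in wild-type pools 1 and 2 (probe 859800). Its congenic pools were the lower ones, but by only 0.12 on average, or 1.08-fold, and the strains were 0.084 apart at the nearest.

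The 3 apolipoprotein genes lie side by side on chromosome 9, in the order Apoa1, Apoc3, Apoa4 among the genes measured on all arrays, and their differences were unequal. Apoc3 (probe 603979) had the largest positive difference of the set. It read 11.50 and 11.37 in congenic pools 1 and 2, against 10.44 and 10.67 in wild-type pools 1 and 2. The strains were 0.70 apart at the nearest, against gaps of 0.13 between the congenic and 0.23 between the wild-type pools. The congenic mean was 11.43 ± 0.092 and the wild-type mean 10.55 ± 0.16, a difference of 0.88, or 1.84-fold, which ranged from 0.77 to 1.00 when any 1 pool was left out. Differences at least as large in either direction were found for 1.70% of all probes. That share describes its size only, since the gene was picked on this contrast.

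Apoa4, a chylomicron protein that the intestine makes in response to fat, read 14.63 and 14.73 in congenic pools 1 and 2, against 14.52 and 14.42 in wild-type pools 1 and 2 (probe 929462). The strains were separated by 0.11, about the gap between the pools of each strain (0.0997 in congenic and 0.1002 in wild type). The difference was 0.21, or 1.16-fold, and 37.6% of all probes differed by at least as much. Apoa1, the main protein of high-density lipoprotein, read 17.39 and 17.30 in congenic pools 1 and 2, and 17.28 and 17.30 in wild-type pools 1 and 2 (probe 830658). Its strains overlapped, and the difference of 0.055 was below the gap between the congenic pools (0.095). Among 3 neighbouring genes the differences were thus 0.055, 0.88 and 0.21.

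**Figure D2:**
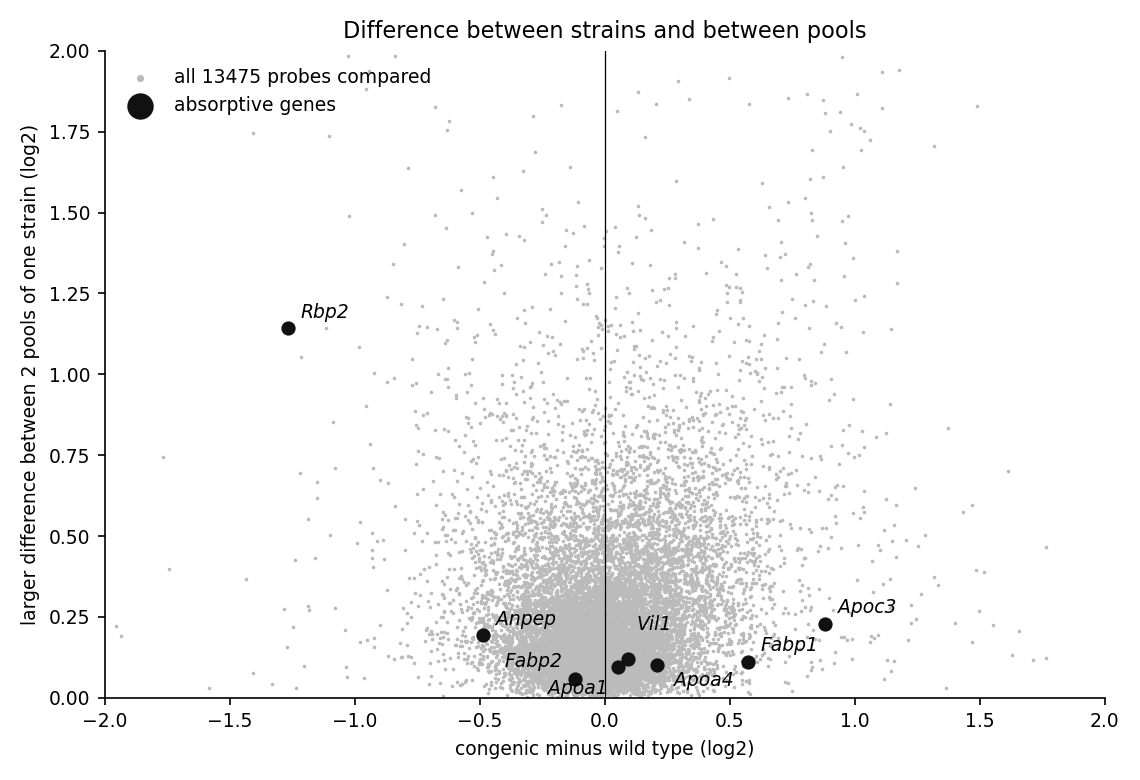
Each probe's difference between strains (horizontal axis, congenic minus wild type, log2) against the larger of its 2 differences between pools of one strain (vertical axis, log2). Grey points are the 13475 probes compared, of which 52 lie beyond the axes, and black points are the 8 genes; Apoc3 and Fabp1 lie to the right with a larger pool gap of 0.23 and 0.11, and Rbp2 combines the most negative difference of the set with a pool gap of 1.14.

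Genes beside the 8 on their chromosomes were read to see whether the differences extended to neighbours. None of the 16 neighbours passed in limma over all probes. On either side of the apolipoprotein genes lay Tagln (-0.20 ± 0.077), Sidt2 (-0.086 ± 0.083) and Sik3 (-0.019 ± 0.13), and then Zpr1 (-0.61 ± 0.28), Cadm1 (0.011 ± 0.17) and Rexo2 (0.047 ± 0.069), as differences ± SE. None of the 6 had an adjusted p below 0.2913, and none was as positive as Apoc3. Slc25a36 and Copb2 flank Rbp2; Copb2, a coatomer subunit, differed by -0.019 ± 0.076, and Slc25a36, a mitochondrial nucleotide carrier, by -0.71 ± 0.38 with 10.44 and 10.40 in congenic and 10.56 and 11.71 in wild-type pools. The strains of Slc25a36 did not overlap, but wild-type pool 1 lay closer to the congenic pools than to wild-type pool 2. Thnsl2, before Fabp1, had the opposite sign to Fabp1 (-0.42 ± 0.14; limma adjusted p = 0.2672). The lowest adjusted p of the 16 belonged to 1810037I17Rik, after Fabp2 (-0.34 ± 0.072; limma adjusted p = 0.1675).

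The genes whose pattern over the 4 arrays was nearest to that of Apoc3 and of Rbp2 were found by the root mean square difference of log2 values, each gene taken relative to its own mean, among 7674 other named genes. For Apoc3 they were Tnrc18 (0.040), Cel (0.068) and Plcl2 (0.081). Cel encodes the bile salt-stimulated lipase that the pancreas secretes, and it read 13.84 and 13.83 in congenic against 12.96 and 13.07 in wild-type pools. Plcl2 is a gene of chromosome 17. For Rbp2 they were Slc16a1 (0.23), Gnpnat1 (0.26) and A130010J15Rik (0.27), all further away than the nearest genes of Apoc3. Slc16a1, a carrier of lactate and other monocarboxylates, read 9.48 and 10.19 in congenic against 10.72 and 10.80 in wild-type pools. In all 3, as in Rbp2, congenic pool 1 had the lowest value of the 4 pools, which choosing them by likeness favours. Within 0.5 of Apoc3 lay 4677 of the 7674 genes, and within 0.5 of Rbp2 lay 82. The measure is not scaled, so these counts largely reflect how far Apoc3 and Rbp2 themselves varied. A gene that is level over the 4 pools lies within 0.5 of Apoc3 but not of Rbp2. The 4677 genes therefore need not share the Apoc3 pattern, and neither counts nor distances are compared between Apoc3 and Rbp2. With 4 arrays these are descriptions of likeness.

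**Figure D3:**
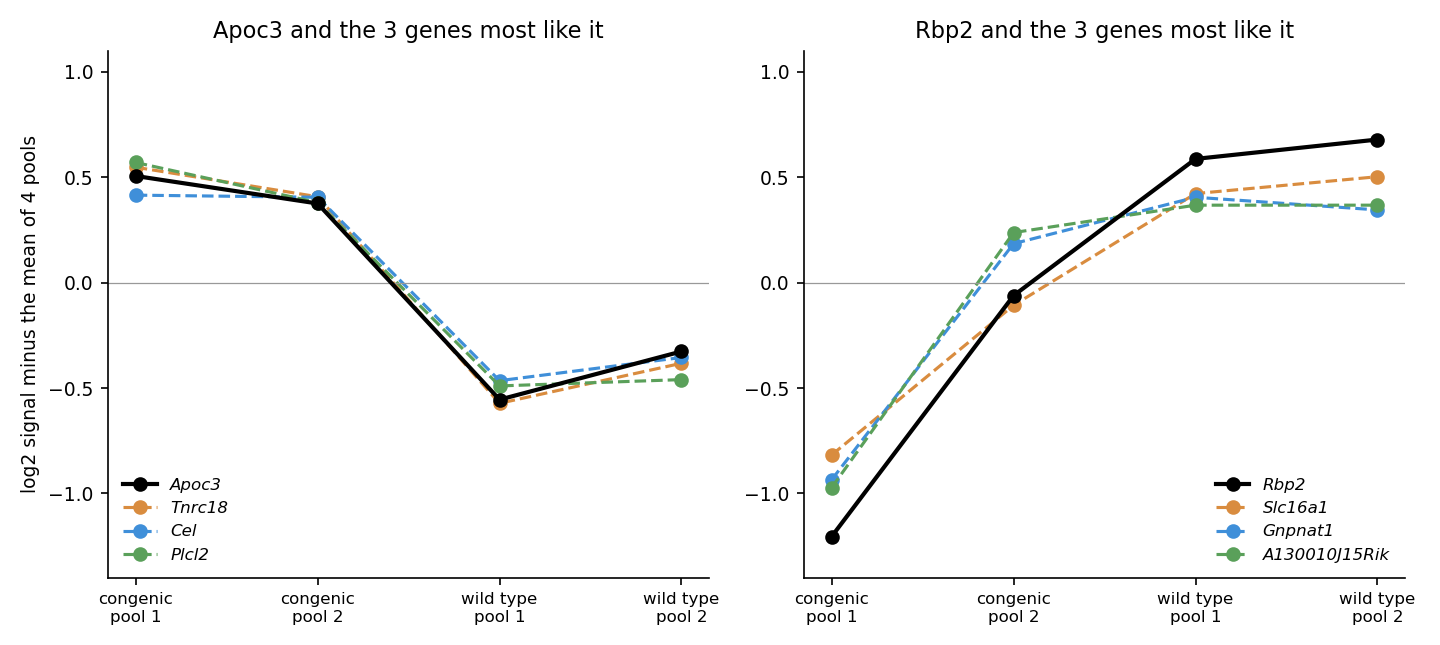
Log2 signal minus the gene's mean over the 4 pools (vertical axis) in each pool, congenic left and wild type right, for Apoc3 and Rbp2 (black) and the 3 named genes most like each (colours); lines join the values of one gene. The Apoc3 group steps down between strains, and the Rbp2 group is lowest in congenic pool 1.

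The wider absorptive pathway was read from 6 lists of 134 genes that exclude the 8. Of these 134, 100 had a probe with 1 symbol, 57 had a value on all arrays, 23 on some and 20 on none. A blank was not read as absence of a transcript. None of the 57 passed in limma in either direction, and the count was also 0 without the variance trend and with robust variances; 13 had an unadjusted p under 0.05 (5 higher and 8 lower), which 15.8% of all probes did. Their median difference was -0.034, with 23 positive and 34 negative, and the pools of the strains did not overlap for 16 higher and 13 lower, beside 23.4% upward and 26.1% downward over all probes. Without wild-type pool 2, 1 of the 57 passed: Sar1b, a GTPase that chylomicrons need to leave the endoplasmic reticulum. It read 14.73 and 14.74 in congenic pools, against 12.53 in wild-type pool 1 and 14.72 in wild-type pool 2, so wild-type pool 1 alone stood apart.

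Brush border enzymes were mostly not measured. Of 19, 2 had a value on all arrays, Enpep, an aminopeptidase (-0.023 ± 0.079), and Mep1b, a meprin subunit (-0.11 ± 0.24), while Treh, Mep1a, Tmprss15, Naaladl1, Mme and Amn were blank throughout. Of 20 brush border structure genes, 8 were measured, with a median of -0.13. The 3 with an unadjusted p under 0.05 were Ezr, which links actin to the membrane (-0.51 ± 0.097; limma adjusted p = 0.143), its partner Slc9a3r1 (-0.26 ± 0.074; limma adjusted p = 0.2149) and Eps8, a capper of actin filaments (0.31 ± 0.10; limma adjusted p = 0.2492). Ezr is a gene of chromosome 17, unlike the 8. The fourth by p was Mall (-0.18 ± 0.088). Krt20 and Lgals4, which mark differentiated gut epithelium, differed by 0.11 and 0.12.

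Nutrient transporters had 6 of 22 measured and a median of -0.094. Slc2a5, the fructose transporter, read 12.51 and 12.33 in congenic against 12.91 and 12.91 in wild-type pools (-0.49 ± 0.12; limma adjusted p = 0.1827), a difference of the size of that of Anpep. Slc39a4 (0.14 ± 0.10), Slc7a9 (-0.33 ± 0.38) and Slc46a1 (-0.23 ± 0.27) followed by p, and the strains overlapped in each. Slc15a1, the peptide transporter, and Slc2a2 were blank on all arrays.

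Fat absorption genes, the group closest to the fatty acid-binding proteins and apolipoproteins, had 16 of 28 measured, 8 positive and 8 negative, with a median of 0.019. Mgll, which splits monoglycerides, had the smallest p (0.32 ± 0.071; limma adjusted p = 0.177), before Surf4, a cargo receptor for lipoproteins (0.20 ± 0.074; limma adjusted p = 0.2864), Dbi, which binds acyl-CoA (-0.19 ± 0.075; limma adjusted p = 0.3108), and Scarb1, a receptor for high-density lipoprotein (-0.44 ± 0.22; limma adjusted p = 0.3828). The enzymes that rebuild triglyceride had small differences: Dgat1 differed by -0.003 ± 0.075, Dgat2 by -0.006 ± 0.087 and Mogat2 by 0.15 ± 0.13. Apoe (-0.061 ± 0.086) and Cd36 (-0.060 ± 0.081) were likewise small.

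Vitamin A genes, the surroundings of Rbp2, had 14 of 24 measured, 7 positive and 7 negative, with a median of 0.024. The plasma carrier Rbp4 read 13.29 and 13.27 in congenic against 12.71 and 12.95 in wild-type pools (0.45 ± 0.12; limma adjusted p = 0.1938), opposite in sign to Rbp2. Crabp2, which carries retinoic acid (0.32 ± 0.10), and Bco2, which cleaves carotenoids (0.49 ± 0.21), also had positive differences, and Rbp7 had a negative one (-0.34 ± 0.20). None of the 4 passed.

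Intestinal transcription factors had 11 of 21 measured, 2 positive and 9 negative, with a median of -0.068. All 4 with an unadjusted p under 0.05 were lower in congenic pools and none passed over all probes. Gata4, which drives absorptive genes in the proximal intestine, read 12.91 and 12.67 in congenic against 13.35 and 13.29 in wild-type pools (-0.53 ± 0.12; limma adjusted p = 0.1773). Gata6 (-0.35 ± 0.085), Klf4 (-0.38 ± 0.085) and Klf5 (-0.29 ± 0.070) had limma adjusted p between 0.1768 and 0.1854. All 4 are also active in gastric or other epithelium. Cdx1 and Cdx2, which define intestinal identity, were blank on all arrays, as were Hnf4g and Vdr.

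**Figure D4:**
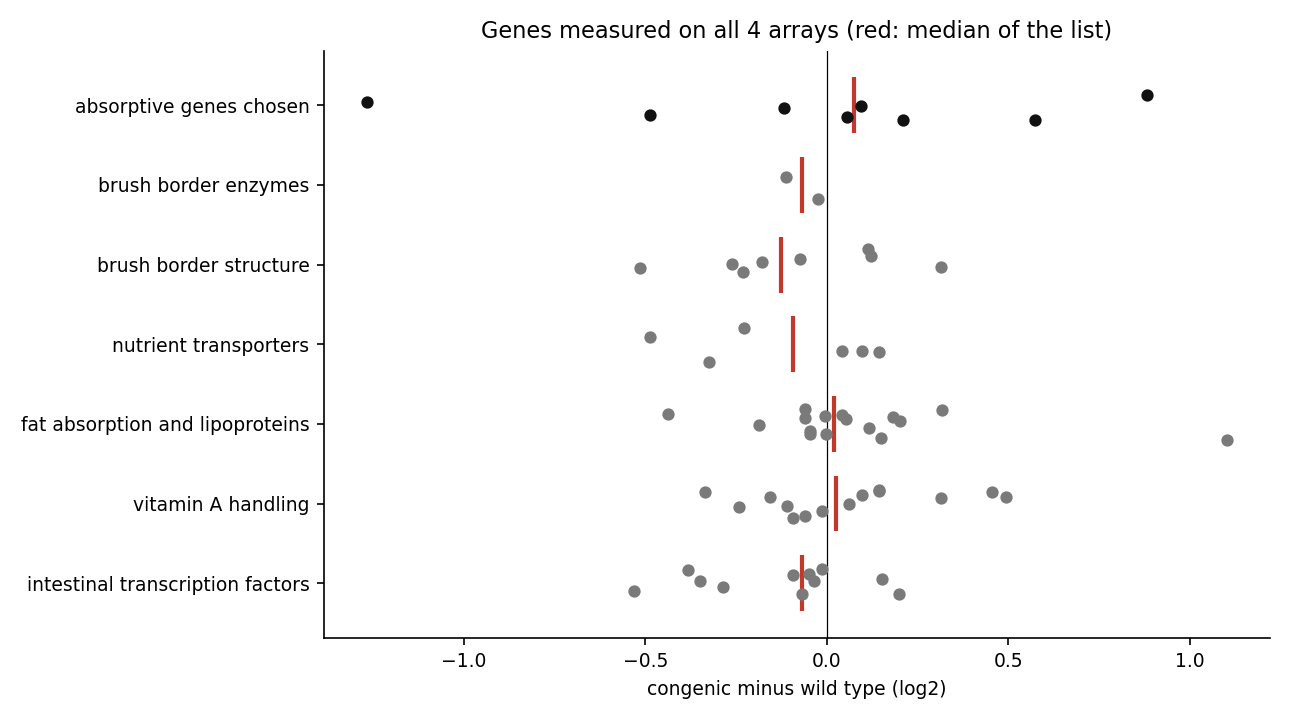
Difference between strains (horizontal axis, congenic minus wild type, log2) of every gene measured on all arrays, in the set of 8 (top row) and in the 6 lists of the absorptive pathway; each point is a gene, with a red line at the median of its row. The set of 8 spans from -1.27 to 0.88, and the list medians lie between -0.13 and 0.024.

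The tissue and other cell types were checked with marker lists. Of 18 gastric markers, 13 had a value on all arrays, none passed in limma (unadjusted p under 0.05 for 1), and the log2 of their summed signal was 23.18 to 23.28 in congenic and 23.05 to 23.25 in wild-type pools. Gkn2, a gastrokine, had the same value of 21.25 on all 4 arrays. Exact values also recurred elsewhere, such as 20.855 for Psca in congenic pool 1 and wild-type pool 2. Processing or a ceiling can make such values equal, so that of Gkn2 is not read as equal gastric content. Atp4a, a subunit of the parietal cell proton pump and the 1 gene with an unadjusted p under 0.05, averaged 19.55 in congenic and 19.76 in wild-type pools. The largest difference of the gastric list was that of Cblif (0.64 ± 0.33). It read 20.20 and 20.24 in congenic against 19.02 and 20.14 in wild-type pools, so wild-type pool 1 alone stood apart. Lipf, the gastric lipase, was blank on all arrays. The sum over goblet and Paneth cell markers (8 of 19 measured, 0 past the limma threshold, and p under 0.05 before adjustment for 1) was 18.36 to 18.40 in congenic and 18.26 to 18.27 in wild-type pools. The largest differences there were those of Clca1 (0.20 ± 0.069) and Itln1 (-0.29 ± 0.20). The 8 absorptive genes summed to 18.27 to 18.28 in congenic and 18.28 to 18.30 in wild-type pools. Such a sum is set mostly by the brightest genes of a list. Here the largest part was Apoa1, at 17.28 to 17.39, so the sum shows little of Rbp2 or Apoc3. In the goblet and Paneth cell list it was Clca1, at 17.21 to 17.44.

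Most liver and exocrine pancreas markers had positive differences, as Apoc3 and Fabp1 did. Of 16 liver markers, 10 were measured, all with positive differences (median 0.60), and 2 rose: Alb (1.52 ± 0.15; limma adjusted p = 0.0202) and the haem-binding plasma protein Hpx (1.50 ± 0.17; limma adjusted p = 0.02983). Neither passed without congenic pool 1, without congenic pool 2 or without the variance trend in the fit. Ahsg (1.22 ± 0.16) and Fgg (1.28 ± 0.22) were next. The summed liver signal was 18.11 to 18.21 in congenic and 17.97 to 17.99 in wild-type pools on the log2 scale. Most of that sum was Ttr, at 17.71 to 17.83 with a difference of 0.050. The mean log2 signal of the list was 13.04 and 13.05 in congenic against 12.22 and 12.33 in wild-type pools. Fgb, Tat and Hp were blank on some arrays, and none of the probes was blank on all.

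Of 24 pancreas markers, 16 were measured, 14 with positive differences, and 10 rose (Cela2a, Cela3b, Reg1, Cpa1, Ctrb1, Cpb1, Amy2a5, Prss1, Prss3 and Cel), between 3.23 ± 0.081 for Cela2a and 0.73 ± 0.069 for Prss3, with a median of 0.91 over the 16. Leaving out congenic pool 1 gave 5, leaving out congenic pool 2 gave 6, and a fit with no variance trend gave 6. The summed signal of the 16 was 21.43 to 21.46 in congenic and 21.04 to 21.07 in wild-type pools. Most of that sum was Pla2g1b (difference 0.415) and Clps (-0.086), which did not pass. The mean log2 signal of the list was 16.10 and 16.07 in congenic against 14.66 and 14.65 in wild-type pools. The part of liver or pancreas RNA in the values of Apoc3 and Fabp1 was not tested. Apoa1, which is also a liver gene, differed by 0.055, and the liver marker Ttr by 0.050. Both were brighter than Alb in every pool, and nothing is read from them about that part.

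The remaining lists, which cover other cells that make Anpep or lipid-binding proteins, had no gene that passed in limma. Myeloid markers (6 of 12 measured) had a median of 0.017 and none had an unadjusted p under 0.05; Cd163 differed by 0.15 ± 0.13, Aif1 by -0.21 ± 0.23, Lyz2 by 0.079 ± 0.092 and S100a9 by 0.037 ± 0.096. Endothelial and fibroblast markers (7 of 12) had a median of 0.047, with 1 unadjusted p under 0.05, that of Tek (0.66 ± 0.26), followed by Lum (-0.18 ± 0.10), Kdr (-0.20 ± 0.11) and Dcn (0.12 ± 0.076). Of 10 adipose markers 3 were measured, and 1 had an unadjusted p under 0.05, the adipose fatty acid-binding protein Fabp4 (-0.45 ± 0.087; limma adjusted p = 0.1475), with Car3 (-0.058 ± 0.073) and Plin1 (0.21 ± 0.29) beside it. Fabp4 thus had the sign of Fabp2 and not of Fabp1. The summed myeloid signal was 17.15 to 17.23 in congenic and 17.05 to 17.19 in wild-type pools.

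**Figure D5:**
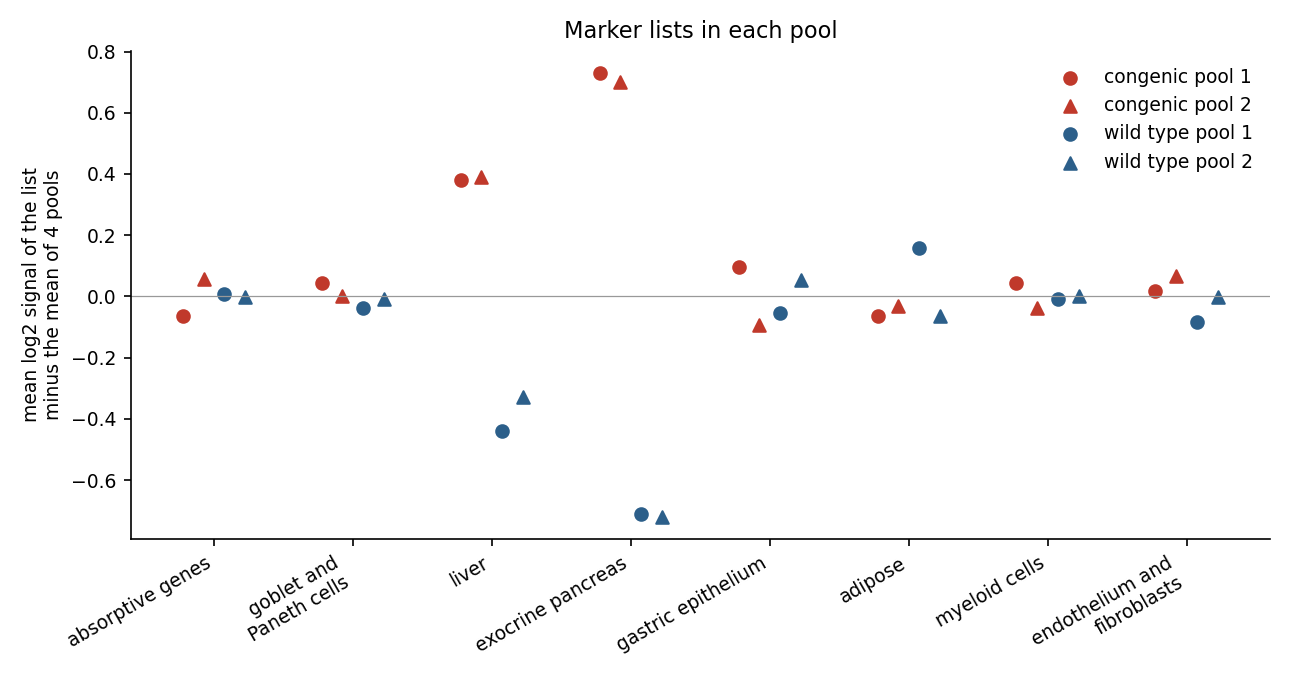
Mean log2 signal of each list in each pool, minus its mean over the 4 pools (vertical axis), for the 8 absorptive genes, the gastric epithelium and other cell types; red is congenic, blue is wild type, circles are pool 1 and triangles pool 2. Liver and exocrine pancreas markers are higher in both congenic pools, and the mean of the 8 absorptive genes stays within 0.1 of 0 in every pool.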

How the data were processed

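The values are log2 signals as deposited by the authors, 1 for each probe and array, with the base inferred from their range. Per the labels' protocols, TRIzol-extracted RNA (1 microgram per pool) was copied into cRNA carrying digoxigenin. How the authors normalized the arrays and left cells blank is not given in the sources used here. Of 33012 probes, the 13475 with a value on all 4 arrays entered 1 fit with no further normalization. The fit was limma (version 3.58.1, under R 4.3.3) with lmFit and a trended eBayes, two-sided. P-values were adjusted by Benjamini-Hochberg across these probes, and those under 0.05 passed. SE are those of this fit. In a simulation of this comparison on 13475 probes, 39% of 100 probes changed by 1 log2 and 74% of 100 changed by 2 log2 were called, and 3 of 116 calls were false. It took each probe's SD between the 2 pools per strain as its true SD. The real spread can differ from that, so these shares are only a rough guide.

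The genes and lists were chosen with earlier results of these data known. Genes named were all list genes that passed, up to 4 per list by p, the nearest measured neighbours (3 on either side of the apolipoprotein genes) and the 3 genes most like Apoc3 and Rbp2; the others named were chosen after their values were seen. Where a gene had several probes, the one with the highest mean was used. Gene order and promoters came from RefSeq (GRCm38.p6). The labels name no build for the array. P-values and SE rest on the spread between pools and not between single mice. A gene's own spread gives 2 degrees of freedom, and the trend over all probes adds 3.97. Exact permutation of 2 against 2 pools cannot reach the threshold and was not used. Figures were drawn with matplotlib 3.10.9.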

Additional observations from a re-analysis of the deposited data

Results flagged for a closer look

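Abcg5, which encodes a sterol transporter of the enterocyte brush border, had a value in both congenic pools (11.20 and 11.82, mean 11.51) and was blank in both wild-type pools. It is listed because this signal lies outside the comparison, which needed a value on every array, and no wild-type array has one. Over all probes, 419 had values in both congenic pools only and 198 in both wild-type pools only. In the other direction, Slc26a3, a chloride and bicarbonate exchanger, was blank in both congenic pools and read 10.12 and 9.08 in the wild-type pools, so 1 gene of the absorptive lists had each pattern. The partner of Abcg5, Abcg8, was blank on all arrays.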

How the results depend on the processing

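The signs of the 8 differences were what the genes were chosen on, so they are no measure of stability here, and settings that change only the variances leave a difference as it is. With quantile normalization the difference of Apoc3 was 0.85. Apoc3, which lies below the median signal, could not be fitted with dim probes left out. The median of the 8 ranged from 0.055 to 0.093 over the alternatives. The number of all probes that passed was 64 (39 higher and 25 lower). It was 35 with the replicate number as a block, 20 without the variance trend, and 15 to 168 when 1 pool was left out. Leaving out congenic pool 1 gave 15 and congenic pool 2 gave 27, while leaving out wild-type pool 1 gave 61 and wild-type pool 2 gave 168. With robust variances 94 passed. The cause was not tested. The count in the absorptive lists was 0 to 1 when 1 pool was left out, and 0 with the replicate number as a block. That block left 1 liver and 8 pancreas markers past the threshold. The numbers are not stated to pair the pools, and deviations of same-numbered pools correlated at -0.064 over probes. Quantile normalization, median centring and a fit with at most 1 blank gave 64, 65 and 68 calls over all probes. The array medians as deposited already lay between 12.8186 and 12.8236. Median centring could therefore change little, and the likeness of these counts is not read as stability.

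Leaving out 1 pool turned the sign of 13 of the 59 list genes followed across the alternatives, none of which passed. Over these fits Agr2 lay between -0.029 and 0.126, Aif1 between -0.447 and 0.024, Apoe between -0.146 and 0.023, Cd36 between -0.126 and 0.007, Dgat1 between -0.037 and 0.031, Dgat2 between -0.087 and 0.076, Enpep between -0.086 and 0.04, Lyz2 between -0.001 and 0.159, Mep1b between -0.445 and 0.219, Plin1 between -0.219 and 0.641, S100a9 between -0.057 and 0.132, Slc46a1 between -0.541 and 0.083 and Slc7a9 between -0.867 and 0.218. The median over the lists of the absorptive pathway changed sign without congenic pool 2 (0.004) and without wild-type pool 1 (0.007). How far a signal lies above background is unknown here.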
